A study of Rattus norvegicus with 7 samples.

Results

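Transcripts of 10 receptor genes through which feeding peptides, leptin and ghrelin act were followed in hippocampus and hypothalamus of rats fed DHA (docosahexaenoic acid, an omega-3 fatty acid). The genes were taken by symbol, with the locus of highest mean where a symbol had several, from 16514 symbols in the deposited tables. All 10 were found in the hippocampus table, and 9 were found in both tables; Lepr was not analysed in hypothalamus. The animals were male Sprague Dawley rats, 2 months old at the start, that were randomly assigned to the diet and received DHA for 6 weeks. The groups were DHA hippocampus (4 libraries) and DHA hypothalamus (3 libraries), so every library shares the diet. Chow-fed controls were not analysed here, and no effect of DHA was estimated. The labels do not say whether the 2 tissues came from the same rats, nor whether a library is 1 animal or a pool, and the spread between replicates is therefore the spread between these libraries.

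Hypothalamic neurons read the body's energy state largely through these receptors. Leptin from fat acts on Lepr, a cytokine-type receptor, and stomach-derived ghrelin acts on Ghsr. Peptides cut from the Pomc precursor activate Mc3r and Mc4r, Agrp blocks both, and neuropeptide Y acts on Npy1r, Npy2r and Npy5r. Melanin-concentrating hormone (from Pmch) acts on Mchr1, and the orexins (from Hcrt) act on Hcrtr1 and Hcrtr2. Except for Lepr, all are G protein-coupled receptors, and many are also made by neurons outside the hypothalamus.

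The values are FPKM, fragment counts scaled for transcript length and library size, so levels can be set side by side between genes, with a limit. Npy, an abundant brain peptide gene, was listed at 0 in every library, so a listed level need not reflect the transcript. Deposited FPKM summed to between 370020 and 471484 per library. Absolute sequencing depth is unknown. The spacing of low values gave relative depth for pairs of libraries other than replicate 1 of each tissue: the FPKM step of a single fragment in hippocampus replicate 2 was 1.52 times that of replicate 3 and 1.16 times that of replicate 4, and in hypothalamus the step of replicate 2 was 0.883 times that of replicate 3. Between 17.8% and 25.3% of low loci lay at the common ratio in pairs without replicate 1, and at most 2.29% in pairs with it. The tissue labels matched their markers. Of 10 hippocampal neuron markers listed, 9 were found and 9 were higher in hippocampus, and of 15 hypothalamic markers, 14 were higher in hypothalamus, Lhx6 being the exception. Pomc, Agrp, Pmch and Hcrt are among these hypothalamic markers and are also ligands described below. Summed FPKM of the hypothalamic markers ran from 12.3 to 17.4 in hippocampus and from 6163 to 8653 in hypothalamus, and that of the hippocampal markers from 1041 to 1490 and from 30.0 to 44.9.

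To set the tissues side by side, the values of a library were multiplied so that its 15805 shared symbols added up to 1000000, and differences are given as hypothalamus minus hippocampus of the mean log2(rescaled value + 1), with their standard error. Because each tissue has its own table, tissue and table cannot be told apart, and no p-value was computed across them. The added 1 understates the change of genes with low values. A gene was called higher in a tissue when its lowest library exceeded the highest of the other tissue and the difference was at least 2-fold, that is 1 on the log2 scale. In bulk tissue, fewer cells that make a receptor and less RNA per cell cannot be told apart.

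In hypothalamus the melanocortin receptor Mc3r and the orexin receptor Hcrtr1 were called higher, and the melanin-concentrating hormone receptor Mchr1 was called higher in hippocampus. Ghsr, Mc4r and Hcrtr2 were also above hippocampus in every hypothalamus library, by less than 2-fold on that scale. Npy2r was above hypothalamus in every hippocampus library, again by less than 2-fold, and Npy1r and Npy5r overlapped between the tissues. So 2 of 9 receptors were called for hypothalamus, where the background over all 10736 symbols compared was 13.4%, and 1 of 9 for hippocampus, where it was 14.5%. With separation of all libraries alone, 5 of 9 receptors were higher in hypothalamus against a background of 24.4%, and 2 of 9 were higher in hippocampus against 28.2%. All 9 passed the minimum of 1 FPKM in a tissue, Mc3r and Hcrtr2 through hypothalamus only, so these counts are a description. The median difference of the 9 receptors was 0.69, beside -0.05 for all symbols. With FPKM as deposited the median of all symbols was 0.21, the hippocampal share of all calls was 33.8% in place of 52.0%, and Mchr1 was no longer called; under upper-quartile scaling that share was 41.5%. All 9 differences kept their direction under each of the 17 alternatives, though for the 7 receptors whose libraries were apart only another scaling or choice of loci could have turned it.

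**Figure D1:**
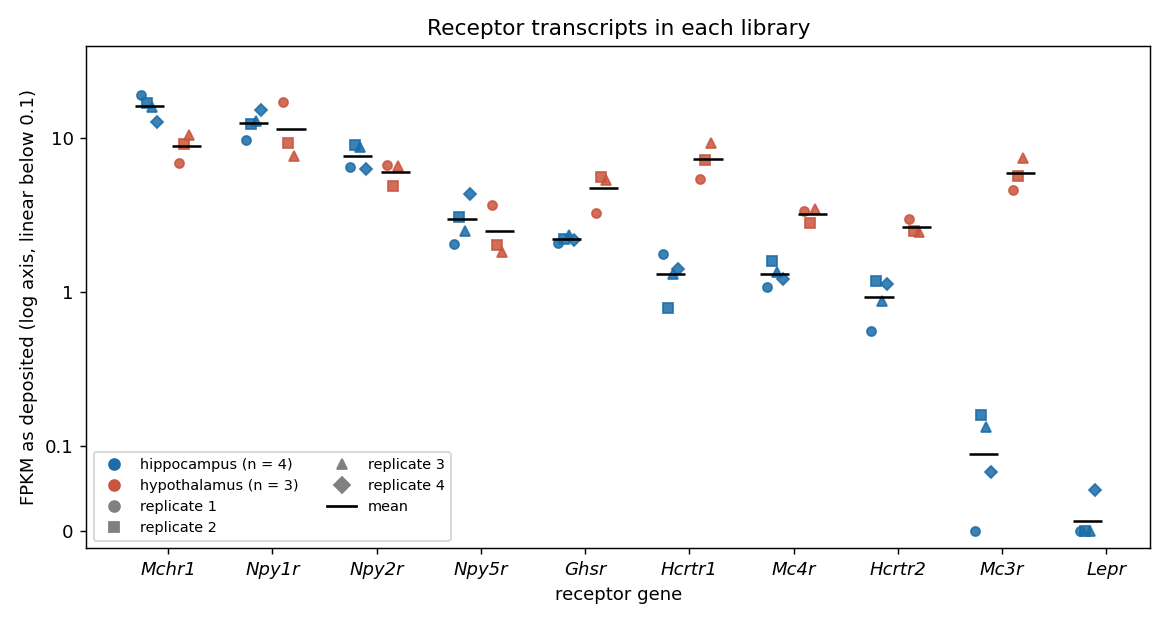
FPKM as deposited of the 10 receptors (vertical axis, logarithmic above 0.1 and linear below), with 1 point per library, hippocampus in blue (n = 4) and hypothalamus in red (n = 3), the mean as a bar and the replicate shown by the marker. Mc3r reads 0 to 0.160 FPKM in hippocampus and 4.59 to 7.48 FPKM in hypothalamus, while Npy1r and Npy5r overlap between the tissues.

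The order of levels differed between the tissues in its spread. In hippocampus, mean FPKM of the 9 receptors spanned 179.8-fold, from Mchr1 at 16.2 through Npy1r, Npy2r, Npy5r, Ghsr, Hcrtr1, Mc4r and Hcrtr2 down to Mc3r at 0.0903, with Lepr below them. The span rests on Mc3r, which lies near 0, and is 17.4-fold without it. Among the 9 neighbouring pairs of that order, 4 had libraries that did not overlap: Npy1r over Npy2r, Npy2r over Npy5r, Ghsr over Hcrtr1, and Hcrtr2 over Mc3r. In hypothalamus the same 9 receptors spanned 4.56-fold, from Npy1r at 11.5 FPKM to Npy5r at 2.51 FPKM, and each mean was at least 1 FPKM. The order between them was Mchr1, Hcrtr1, Npy2r, Mc3r, Ghsr, Mc4r and Hcrtr2, and all 8 neighbouring pairs overlapped.

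The leptin receptor transcript Lepr was listed at 0 in hippocampus replicates 1, 2 and 3 and read 0.0488 FPKM in replicate 4, at a single locus. Choroid plexus is a known site of Lepr, and its markers were measured beside it. Over 9 markers found, Ttr being the most abundant and Otx2 listed at 0 throughout, the mean log2(FPKM + 1) was 4.73, 0.98, 5.42 and 4.70 in replicates 1 to 4, so Lepr was listed at 0 in replicates 1 and 3, where these markers were high, and in replicate 2, where they were low; their part in the value of replicate 4 was not tested. A listed 0 need not be an absent transcript here: Npy, Col1a2 and Otx2 were listed at 0 in all 7 libraries, although Npy is an abundant brain peptide gene. In the RefSeq annotation Lepr overlaps Leprot, the leptin receptor overlapping transcript gene, which was not analysed here, and reads of overlapping genes can be divided differently.

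Genes that carry or limit the leptin receptor signal were compared between the tissues. Of 10 listed, 3 (30%) were called higher in hypothalamus and 2 (20%) in hippocampus, beside 13.4% and 14.5% of all symbols, with a median difference of 0.30. Stat5a was the called gene that passed the minimum through hypothalamus only. Stat5b, a transcription factor that cytokine receptors activate, read 22.7, 27.0 and 27.7 FPKM in hypothalamus and 8.87, 7.53, 8.90 and 6.37 FPKM in hippocampus, a difference of 1.37 ± 0.14 (SE, n = 3 and 4). Stat5a differed by 1.15 ± 0.10, which fell to 0.65 with a pseudocount of 5, and the adaptor Sh2b1 by 1.33 ± 0.32. Towards hippocampus, Ptpn1, a phosphatase that restrains leptin signalling, read 15.0, 21.7, 20.5 and 22.7 FPKM against 4.21, 5.87 and 6.51 FPKM, a difference of -2.07 ± 0.20. Jak2, the kinase bound to the receptor, differed by -1.07 ± 0.28 and was not called with FPKM as deposited (-0.74), under upper-quartile scaling (-0.91), with a pseudocount of 5 (-0.92) or without hypothalamus replicate 3 (-0.86). Stat3, the main leptin-responsive factor, was higher in each hypothalamus library, at 20.2, 32.2 and 25.6 FPKM against 12.9 to 15.4 FPKM, and differed by 0.59 ± 0.20 after rescaling, short of a call. Socs3, a feedback inhibitor induced by Stat3, read 0.477 to 0.822 FPKM in hippocampus and 0.865 to 2.40 FPKM in hypothalamus and overlapped after rescaling; without hypothalamus replicate 1 it was called for hypothalamus (1.14).

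Ghsr, the ghrelin receptor, was the steadiest of the receptors above 1 FPKM in hippocampus, at 2.10, 2.22, 2.34 and 2.17 FPKM in replicates 1 to 4 (mean 2.21 ± 0.10, SD, n = 4). In hypothalamus it read 3.26, 5.63 and 5.39 FPKM (mean 4.76 ± 1.31, SD, n = 3), all above hippocampus, with replicate 1 the lowest. The difference was 0.69 ± 0.22, or 1.75-fold between mean rescaled values. The gene Mboat4, which encodes the enzyme that acylates ghrelin, was low in both tissues. It had a mean of 0.830 FPKM (SD 0.0827, n = 4) in hippocampus and of 0.533 FPKM (SD 0.0981, n = 3) in hypothalamus. After rescaling, every hippocampus library of Mboat4 was above hypothalamus (2.21 to 2.76 against 1.10 to 1.54), but the gene lay below the minimum needed to be compared. The ghrelin gene Ghrl was not analysed here.

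Of the 9 receptors, Mc3r had the largest difference between the tissues. It was listed at 0 in hippocampus replicate 1 and read 0.160, 0.132 and 0.0695 FPKM in replicates 2 to 4, and it read 4.59, 5.74 and 7.48 FPKM in hypothalamus. The groups were far apart, with a difference of 3.55 ± 0.21 that ran from 1.83 with a pseudocount of 5 to 5.52 with one of 0.1. A further hypothalamic locus of Mc3r did not exceed 0.000195 FPKM. Mc4r, the receptor whose loss causes obesity in rodents and humans, was present in both tissues, at 1.09, 1.59, 1.35 and 1.22 FPKM in hippocampus and 3.40, 2.81 and 3.50 FPKM in hypothalamus. All hypothalamus libraries were higher, and mean rescaled values differed 2.01-fold, but the difference of 0.85 ± 0.11 on the log2(value + 1) scale did not reach 1.

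A ratio of both receptors within a library does not depend on how that library was scaled. In hypothalamus Mc3r was at 1.35, 2.04 and 2.14 times the level of Mc4r. In hippocampus the ratio was 0.101, 0.0983 and 0.0569 in replicates 2 to 4, and none was formed for replicate 1. Between Mc3r and Mc4r, the more abundant transcript was thus Mc3r in every hypothalamus library and Mc4r in every hippocampus library.

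The gene of the accessory protein Mrap2, which binds Mc4r and modulates it, was also called higher in hypothalamus, at 38.7, 30.8 and 40.1 FPKM against 10.4 to 17.5 FPKM (1.12 ± 0.18; 0.95 without replicate 1 of both tissues). Its relative Mrap stayed at or below 0.399 FPKM. The ligand precursor Pomc read 94.0, 141 and 135 FPKM in hypothalamus and 5.07, 0.192, 0.734 and 0.210 FPKM in hippocampus, where replicate 1 was the high library. The antagonist Agrp read 8.27, 10.4 and 21.7 FPKM in hypothalamus and at most 0.587 FPKM in hippocampus. Pituitary tissue also makes Pomc, and 4 of 8 pituitary markers were called higher in hypothalamus, where 13.4% of all symbols were. These 4 passed the minimum through hypothalamus only, so nothing is read from their count against that background. Summed FPKM of the 8 was 102.0 to 320.7 in hypothalamus and 0.451 to 1.17 in hippocampus, and Cga led it. Gh1 did not exceed 0.237 FPKM in hypothalamus, and Fshb was above 0 in hypothalamus replicate 2 alone (0.575 FPKM). Prl was listed at 0 in all 7 libraries. The part of pituitary RNA in the Pomc value was not tested. The other melanocortin receptors, Mc2r and Mc5r, did not exceed 0.0954 FPKM in any library, and Mc1r was not analysed here.

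The promoters of the receptors called higher in hypothalamus, and of Hcrtr2, show what sequence lies at these gene starts. They are from RefSeq in build GRCr8, from 250 bases before to 50 after the annotated start, while the submitters' processing notes name rn5 for the FPKM tables; the regions are Mc3r (chr3:181434526-181434825, plus strand), Hcrtr1 (chr5:147770801-147771100, minus strand) and Hcrtr2 (chr8:85986356-85986655, minus strand). Capitals mark TGACG, the core of the site bound by the cAMP-responsive factors CREB and ATF, or its reverse complement CGTCA.
Mc3r: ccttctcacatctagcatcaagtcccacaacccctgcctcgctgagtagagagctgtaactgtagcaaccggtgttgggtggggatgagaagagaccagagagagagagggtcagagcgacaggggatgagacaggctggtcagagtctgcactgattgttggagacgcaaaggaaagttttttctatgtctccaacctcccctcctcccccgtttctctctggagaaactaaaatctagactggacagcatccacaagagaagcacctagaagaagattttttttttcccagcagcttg
Hcrtr1: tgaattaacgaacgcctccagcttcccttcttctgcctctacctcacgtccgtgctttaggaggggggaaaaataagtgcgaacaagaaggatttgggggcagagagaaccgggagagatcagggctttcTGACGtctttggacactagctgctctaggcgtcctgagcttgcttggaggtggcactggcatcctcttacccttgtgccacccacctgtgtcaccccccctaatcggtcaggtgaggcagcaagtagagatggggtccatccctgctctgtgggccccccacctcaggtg
Hcrtr2: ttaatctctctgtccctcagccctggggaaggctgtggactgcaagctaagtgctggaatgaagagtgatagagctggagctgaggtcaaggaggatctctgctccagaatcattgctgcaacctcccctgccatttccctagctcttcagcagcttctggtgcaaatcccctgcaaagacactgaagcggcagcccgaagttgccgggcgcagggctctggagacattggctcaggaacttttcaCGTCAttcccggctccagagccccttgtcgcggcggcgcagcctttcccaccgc
Promoters were found for 9 of the 10 receptors, Mchr1 being the one without an entry. The motif TGACG, searched on both strands, was present in 4 of them, those of Ghsr, Npy1r, Hcrtr1 and Hcrtr2, and in 21.2% of 33469 promoters of the same length. TATAAA on either strand was in none of the 9 and in 14.2% of all. The GC content was 50.3% for Mc3r, 57.0% for Hcrtr1 and 58.0% for Hcrtr2, beside a median of 51.7% over all promoters, and Ghsr stood higher at 62.0% with 21 CpG dinucleotides against a median of 7.

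The orexin receptors were both higher in hypothalamus. Hcrtr1 read 5.42, 7.23 and 9.30 FPKM there and 1.78, 0.789, 1.30 and 1.41 FPKM in hippocampus, with the groups well apart. The difference was 1.92 ± 0.27, or 4.47-fold between mean rescaled values, and Hcrtr1 stayed called under all 17 alternatives. Hcrtr2 read 3.01, 2.48 and 2.47 FPKM in hypothalamus and 0.560, 1.18, 0.869 and 1.13 FPKM in hippocampus. Its difference of 0.99 ± 0.19 lay just under the limit of 1, at a 2.32-fold ratio of mean rescaled values, and 10 of the 17 alternatives carried it past the limit or dropped the limit. Others lowered it, to 0.55 with a pseudocount of 5, 0.75 without replicate 1 of both tissues and 0.84 without hippocampus replicate 1. By contrast Mchr1, at -1.13, lay just past the limit on the other side.

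Within a library, Hcrtr1 was 1.80, 2.91 and 3.77 times Hcrtr2 in hypothalamus. In hippocampus the ratio was 3.18, 0.668, 1.50 and 1.25, so the tissues overlapped, and replicate 2 was the one library with more Hcrtr2 than Hcrtr1. The ligand gene Hcrt read 867, 333 and 757 FPKM in hypothalamus and 2.06 to 2.53 FPKM in hippocampus.

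Mchr1 had the highest mean of the receptors in hippocampus, above Npy1r in 3 of 4 libraries and below it in replicate 4, and was higher there than in hypothalamus, while the gene of its ligand was higher in hypothalamus. It read 19.1, 17.0, 16.1 and 12.8 FPKM in hippocampus (mean 16.2 ± 2.64, SD, n = 4) and 6.93, 9.24 and 10.5 FPKM in hypothalamus (mean 8.90 ± 1.82, SD, n = 3). Every hippocampus library was above every hypothalamus library, also under the 3 other scalings, with loci summed and with loci of another status kept. The difference of -1.13 ± 0.19, a 2.25-fold excess in hippocampus after rescaling, fell short of the limit with FPKM as deposited (-0.80), under upper-quartile scaling (-0.98), without hypothalamus replicate 1 (-0.99) and without replicate 1 of both tissues (-0.90). Pmch, the precursor of its ligand, read 1330, 375 and 773 FPKM in hypothalamus and 0.449 to 0.876 FPKM in hippocampus.

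**Figure D2:**
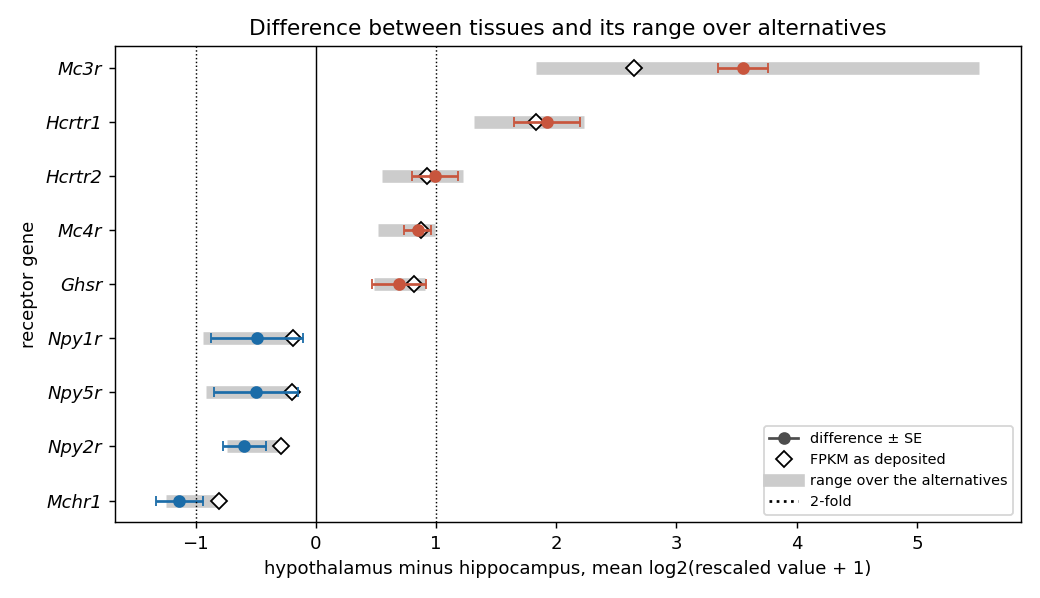
Hypothalamus minus hippocampus of mean log2(rescaled value + 1) for the 9 receptors in both tables, with its standard error (n = 3 and 4 libraries), the value with FPKM as deposited (open diamond) and the range over 17 alternatives (grey bar); dotted lines mark 2-fold. Mc3r at 3.55 and Hcrtr1 at 1.92 lie beyond 2-fold over their whole range, while Hcrtr2 at 0.99 and Mchr1 at -1.13 straddle the line.

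None of the 3 neuropeptide Y receptors was higher in hypothalamus. Npy1r, a postsynaptic receptor, read 9.80, 12.4, 12.9 and 15.3 FPKM in hippocampus and 17.3, 9.30 and 7.74 FPKM in hypothalamus. In FPKM hypothalamus replicate 1 stood above every other library, and the tissues overlapped, at a difference of -0.49 ± 0.38. Npy5r, which also mediates feeding, read 2.06, 3.10, 2.51 and 4.37 FPKM in hippocampus and 3.69, 2.02 and 1.84 FPKM in hypothalamus, again with replicate 1 highest in hypothalamus and replicate 4 in hippocampus (-0.49 ± 0.35). Without hypothalamus replicate 1, both genes were higher in every hippocampus library, at -0.83 for Npy1r and -0.77 for Npy5r. Without hypothalamus replicate 3 the differences shrank to -0.23 and -0.31, and without hippocampus replicate 4 that of Npy5r was -0.32, with the tissues overlapping, so the size of both differences depended on single libraries. It depended on the scaling too, with -0.19 for Npy1r and -0.20 for Npy5r in FPKM as deposited and -0.34 and -0.36 under upper-quartile scaling.

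Markers of neighbouring thalamus were examined beside hypothalamus replicate 1. Of 6 thalamus and habenula markers, 4 were highest in that library among the hypothalamus libraries, as were 44.2% of all symbols compared. For hypothalamus 3 of 6 were called and for hippocampus 1, beside 13.4% and 14.5% of all symbols. Gbx2, 1 of the 3, passed the minimum through hypothalamus only. The mean log2(FPKM + 1) of the thalamus list was 4.29, 3.61 and 3.56 in replicates 1 to 3, against 2.87 to 3.17 in hippocampus. Summed FPKM of the list ran from 142 to 240 in hypothalamus and from 61.6 to 79.7 in hippocampus. Tac2 alone made up most of the hypothalamic sum, at 169, 91.8 and 188 FPKM, and was highest in replicate 3. The list did not move as one: Tcf7l2, a transcription factor gene of thalamic neurons, read 17.0, 9.03 and 9.43 FPKM in hypothalamus. By contrast Rgs16 was lowest in replicate 1, at 9.04 FPKM. Of 6 astrocyte markers, 4 were also highest in replicate 1, but their mean log2(FPKM + 1) of 7.53, 7.66 and 7.32 was highest in replicate 2. Replicate 1 of each tissue also had no clear common step of low values, as given above. It had the fewest loci at 1 FPKM or more, 11136 in hypothalamus against 11515 and 11333, and 10732 in hippocampus against 11037 to 11308. The part of these cells, or of these library differences, in the Npy1r and Npy5r values was not tested.

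Npy2r, a mainly presynaptic receptor, read 6.48, 9.06, 8.80 and 6.31 FPKM in hippocampus and 6.67, 4.94 and 6.61 FPKM in hypothalamus. After rescaling, all hippocampus libraries were above hypothalamus, by a difference of -0.59 ± 0.18, whereas FPKM as deposited overlapped (-0.29). Of their ligands, Npy and Ppy were listed at 0 in all 7 libraries, and Pyy did not exceed 0.779 FPKM. The related receptor Npy4r, which prefers pancreatic polypeptide, read 0.390 to 0.853 FPKM in hypothalamus and at most 0.0291 FPKM in hippocampus, below the 1 FPKM needed to be compared. Npy6r was not analysed here.

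Npy1r and Npy5r are neighbouring genes, next to each other in the RefSeq order of protein-coding genes and on opposite strands, with transcription running apart. Their annotated starts are separate, and their promoter windows do not overlap. The promoter windows are from RefSeq, build GRCr8, Npy1r at chr16:27813338-27813637, minus strand and Npy5r at chr16:27821805-27822104, plus strand, with TGACG or its reverse complement in capitals. They are shown because these neighbouring genes are compared within each library.
Npy1r: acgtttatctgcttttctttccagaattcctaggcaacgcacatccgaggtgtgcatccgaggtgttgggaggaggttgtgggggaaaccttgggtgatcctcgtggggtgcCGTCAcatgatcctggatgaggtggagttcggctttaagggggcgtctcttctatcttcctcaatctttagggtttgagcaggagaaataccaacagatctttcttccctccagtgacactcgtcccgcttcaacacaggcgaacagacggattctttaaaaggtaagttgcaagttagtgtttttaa
Npy5r: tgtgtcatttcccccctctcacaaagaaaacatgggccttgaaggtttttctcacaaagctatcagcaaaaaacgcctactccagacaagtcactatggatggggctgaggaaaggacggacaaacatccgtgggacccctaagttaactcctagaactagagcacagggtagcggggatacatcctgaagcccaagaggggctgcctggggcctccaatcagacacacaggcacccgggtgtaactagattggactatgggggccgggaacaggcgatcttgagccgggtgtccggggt
Over the 7 libraries FPKM of Npy1r varied 2.24-fold and that of Npy5r 2.38-fold, while their ratio varied 1.47-fold. Npy1r was at 4.77, 4.01, 5.15 and 3.49 times Npy5r in hippocampus and at 4.70, 4.61 and 4.21 times in hypothalamus. The SD of the log2 ratio over all 7 libraries was 0.19, beside 0.41 for log2 FPKM of Npy1r and 0.48 for that of Npy5r. The narrow ratio came from the 3 hypothalamus libraries, where its SD was 0.08 beside 0.61 and 0.55. In hippocampus the ratio varied about as much as Npy1r, with an SD of 0.25 beside 0.26 for Npy1r and 0.47 for Npy5r. The ratios with Npy2r varied more: Npy1r over Npy2r ran from 1.37 to 2.42 in hippocampus and from 1.17 to 2.60 in hypothalamus, and Npy2r over Npy5r from 1.44 to 3.51 and from 1.81 to 3.60. In no ratio among these 3 receptors did the tissues separate.

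**Figure D3:**
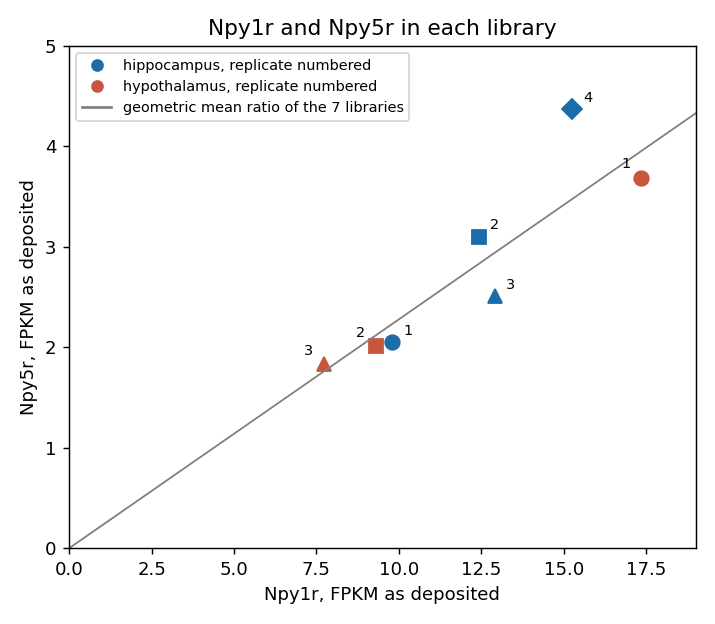
FPKM as deposited of Npy5r (vertical axis) against Npy1r (horizontal axis), with 1 point per library, hippocampus in blue and hypothalamus in red, each numbered by replicate; the line is the geometric mean ratio of the 7 libraries, at which Npy1r is 4.39 times Npy5r. The hypothalamus libraries lie near the line, at ratios of 4.21 to 4.70, and the hippocampus libraries spread more widely about it, at 3.49 to 5.15.

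Many other symbols had profiles nearer to either gene. Likeness was measured as the root-mean-square difference between profiles of rescaled log2 values over the 7 libraries, each gene centred on its own mean, against 10735 other symbols. By this measure Npy5r ranked 90 for Npy1r, at 0.16, and Npy1r ranked 136 for Npy5r. The nearest profiles to Npy1r were those of Tardbp (0.07) and Pls3 (0.08), and to Npy5r those of Usp33 (0.04) and Clcn3 (0.07). Nearest to Npy2r were Lrrc48 (0.10) and Cct7 (0.10), and to Mchr1 Cntnap1 (0.07) and Fkbp1b (0.08). Among the receptors higher in hypothalamus, the nearest profiles were Gpr50 (0.16) and Ttc1 (0.16) for Mc3r, Drd2 (0.14) and Zfp358 (0.17) for Hcrtr1, Tceal1 (0.10) and Cdc42 (0.12) for Hcrtr2, Tmem138 (0.07) and Ap3d1 (0.09) for Mc4r, and Gab2 (0.07) and Zdhhc5 (0.07) for Ghsr. The tissue difference takes part in every such distance.

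Within hippocampus, the SD of log2(FPKM + 1) was below 0.237, the median over loci averaging 1 FPKM or more, for 6 of 10 receptors; Lepr and Mc3r are among the 6 and lie near 0, where this SD is small by construction. In hypothalamus it was below the median of 0.252 for 3 of 9, and the widest was that of Npy1r at 0.562. Mc4r and Hcrtr2 were the steadiest there, at 0.130 and 0.118.

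Receptors of other feeding signals were compared as a list, with the 3 Ramp genes, whose products are accessory proteins of the calcitonin receptor family. Of 16 listed, 9 were called higher in hypothalamus and 0 in hippocampus, with a median difference of 1.11; over all symbols 13.4% and 14.5% were called. Of these 9, 7 had hippocampal means under 1 FPKM and passed the minimum through hypothalamus only, so nothing is read from the count against that background. Ramp1 and Ramp2 passed in both tissues, and no called receptor of the list did. Calcr, the calcitonin receptor that forms amylin receptors, led with 52.8, 40.9 and 53.5 FPKM in hypothalamus and at most 0.702 FPKM in hippocampus (5.85 ± 0.31). Its partners Ramp1 and Ramp2 were called as well (2.53 ± 0.23 and 1.20 ± 0.19), and Ramp3 overlapped. Cckar, a cholecystokinin receptor, read 5.21, 4.39 and 7.12 FPKM against at most 0.171 FPKM (3.56 ± 0.21), whereas its relative Cckbr was not called (-0.70 ± 0.37). Its libraries were narrowly apart after rescaling and overlapped under the 3 other scalings, at -0.37 with FPKM as deposited, and it was at -0.39 without hypothalamus replicate 1. Brs3 (2.25 ± 0.33), Galr3 (2.08 ± 0.14), Nmur2 (1.52 ± 0.55), Glp1r (1.52 ± 0.27) and Galr1 (1.03 ± 0.17) were the other called genes, with hypothalamic means from 1.28 FPKM for Glp1r to 2.44 FPKM for Brs3. With FPKM as deposited Glp1r (0.99) and Galr1 (0.81) were not called, with a pseudocount of 5 none of these 5 genes was, at 0.97, 0.76, 0.70, 0.56 and 0.45 in the same order, and Galr1 kept the call under 11 of 17 alternatives. It rose to 1.80 when loci were summed and lost the call without hippocampus replicate 1 (0.89), hypothalamus replicate 1 (0.98) or, narrowly, hypothalamus replicate 2. The insulin receptor gene Insr was higher in every hippocampus library (-0.58 ± 0.11; -0.28 with FPKM as deposited and -0.95 with loci summed), and the serotonin receptor gene Htr2c overlapped (-0.73 ± 0.42), and they were not called either. Without hypothalamus replicate 1, Htr2c was called for hippocampus (-1.04), and Crhr2 (1.07, from 0.73) and Prlhr (1.20, from 0.53) for hypothalamus. Prlhr moved the other way without hypothalamus replicate 2 (0.29) or 3 (0.11), with the tissues overlapping. Prlhr was also called with loci summed (1.61), and Gipr for hippocampus with a pseudocount of 0.1 (-1.04, from -0.79). Gipr was at -0.40 with FPKM as deposited, -0.39 with a pseudocount of 5 and -0.49 without replicate 1 of both tissues.

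Over the 5 pathway lists together, 32 of 41 genes in both tables passed the minimum, 17 were called higher in hypothalamus and 2 in hippocampus, with a median difference of 1.07; over all symbols 13.4% and 14.5% were called, and the median was -0.05. The minimum shapes these values, since 11 of the 32 genes, and 10 of the 17 called for hypothalamus, passed it through hypothalamus only. Among the ligands 4 passed, Agrp and Pmch through hypothalamus only and Pomc in hippocampus through replicate 1 alone, and 4 were called for hypothalamus, where 13.4% of all symbols were, by 3.83 ± 0.43 for Agrp, 6.42 ± 0.80 for Pomc, 7.55 ± 0.42 for Hcrt and 9.30 ± 0.54 for Pmch. Without hippocampus replicate 1 the difference of Pomc was 7.17. All 4 ligands are also in the hypothalamic marker list, so their calls are not separate from the marker result. Lep, the leptin gene, did not exceed 0.0116 FPKM in any library. Leprotl1, a relative of Leprot, was above hippocampus in each hypothalamus library (0.49 ± 0.13), but its further hippocampal locus brought the difference to 0.05 when loci were summed.

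**Figure D4:**
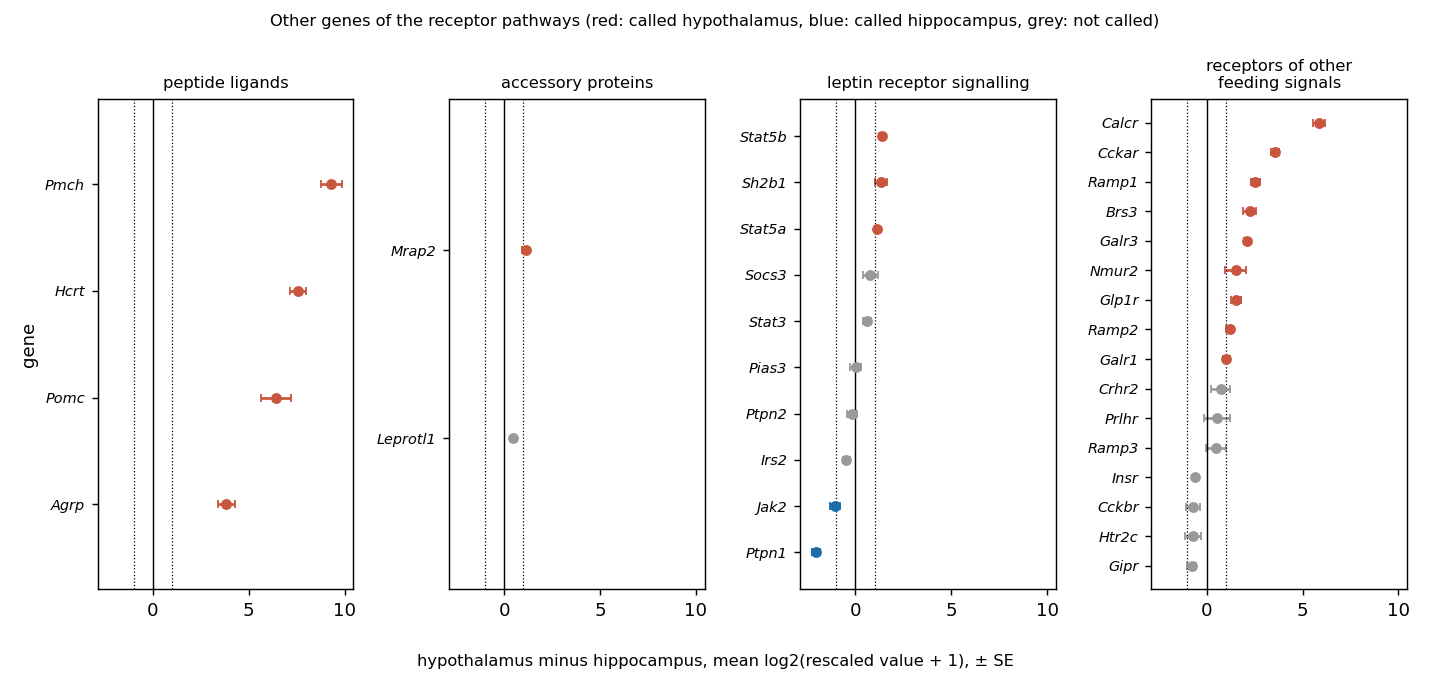
Hypothalamus minus hippocampus of mean log2(rescaled value + 1), with its standard error (n = 3 and 4 libraries), for the ligands, accessory proteins, leptin receptor signalling genes and other feeding receptors that passed the minimum of 1 FPKM; red marks genes called higher in hypothalamus, blue those called higher in hippocampus, grey those not called, and dotted lines mark 2-fold. The 4 ligands lie between 3.83 and 9.30, while the signalling genes run from -2.07 for Ptpn1 to 1.37 for Stat5b.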

How the data were processed

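Poly-A RNA of rat hippocampus and hypothalamus was sequenced, per the labels' protocols. The authors deposited FPKM, in a table for each tissue with a status word beside each value. Per the submitters' processing notes, TopHat, TopHat2, Bowtie, Bowtie2, Cufflinks, Cuffdiff and the build rn5 were involved; the annotation and strand setting are not given in the sources used here. Loci whose status word was not OK throughout were dropped (86 in hippocampus, 24 in hypothalamus). Symbols were joined across tables, with the highest-mean locus per symbol and RefSeq synonyms (GRCr8) for older names. All computing was in Python 3.11.15 with pandas 2.3.3 and numpy 2.4.6. The call rule was tried on simulated data with changes far larger than the limit of a call. That trial says nothing of differences near the limit. The 2 tables number their loci separately and how they were normalized is not stated, so values across them are described and not tested. Alternatives were 3 other scalings, pseudocounts of 0.1 and 5, summed loci, other filters and leaving out libraries.

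The members and gene lists were chosen with earlier results of these data known. Named were the receptors, the called genes of the pathway lists, the ligands and accessory genes, and the 2 nearest profiles per receptor; Stat3, Socs3, the paralogous receptors, Ramp3, Cckbr, Insr, Htr2c, Crhr2, Prlhr and Gipr, and the markers named, were picked after their values were seen. Marker lists for meninges, endothelium, ependyma and tanycytes, oligodendrocytes, microglia, astrocytes and neurons had mean log2(FPKM + 1) of 1.43 to 3.25, 3.89 to 4.13, 3.22 to 3.39, 8.64 to 8.77, 4.27 to 4.66, 7.01 to 7.11 and 6.82 to 7.23 in hippocampus and of 2.13 to 3.78, 3.53 to 3.75, 3.24 to 3.88, 8.85 to 9.15, 4.86 to 4.90, 7.32 to 7.66 and 6.51 to 6.83 in hypothalamus.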

Additional observations from a re-analysis of the deposited data

Results flagged for a closer look

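In the 4 hippocampus libraries, 26 values with any range were examined for a library that stands apart, by the gap to its neighbour as a share of the whole range. Dixon's 95% limit was passed by 4, where chance gives about 1 in 20, or 1.3 of 26, although lists and genes are not independent. Lepr was above 0 in replicate 4 alone, at 0.0488 FPKM, which gives a share of 1; with 3 libraries at 0 this holds by construction, whatever the value of replicate 4. The ratio of Npy1r to Npy2r was 2.42 in replicate 4 and 1.37 to 1.51 in the others, a share of 0.865. The hippocampal neuron markers were highest in replicate 1, with a mean log2(FPKM + 1) of 5.97 against 5.55 to 5.60 (0.868). The choroid plexus markers were lowest in replicate 2, at 0.98 against 4.70 to 5.42 (0.836).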

How the results depend on the processing

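Receptors called higher in hippocampus numbered 0 with FPKM as deposited, under upper-quartile scaling and without replicate 1 of both tissues, in place of 1, and 0 to 1 when single libraries were left out, 0 being without hypothalamus replicate 1. Pathway genes numbered 19 and 3 without that library and 1 in hippocampus without hypothalamus replicate 3. Without a minimum fold, 5 receptors were higher in hypothalamus and 2 in hippocampus, and all symbols gave 2621 and 3023. Receptors called for hypothalamus numbered 2 to 3 when single libraries were left out, the additional one being Hcrtr2. With FPKM as deposited, 928 of all symbols were called for hippocampus. Pathway genes called for hippocampus numbered 1 with FPKM as deposited, under upper-quartile scaling and with a pseudocount of 5, 6 without a minimum fold, and 1 to 3 with libraries left out, where 16 to 19 were called for hypothalamus; a pseudocount of 5 gave 11. With single libraries or both replicates 1 left out, all symbols gave 1404 to 1709 calls for hypothalamus and 1485 to 1944 for hippocampus. Leaving out 1 of 3 or 4 libraries cannot move a mean level or ratio by as much as its SD, so this says nothing of their stability; mean Lepr in hippocampus was 0.0122 FPKM with replicate 4 and 0 without it. Depth is unknown, and Lepr and Mc3r in hippocampus rest on the lowest values. No paired analysis was possible because the labels do not say whether same-numbered libraries of the 2 tissues share a rat.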
